A study of Mus musculus with 6 samples.

Results

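Eukaryotic translation initiation factors load the initiator tRNA and the messenger RNA onto the ribosome. The 44 genes described here are those whose symbol starts with Eif and that the array annotation names alone on a probe set, out of 18193 genes so named; the sex-linked Eif2s3x, Eif2s3y, Eif1ax and Eif1ay were left out by rule. Each gene is represented by its brightest probe set, and 43 of the 44 had a mean signal above the level below which genes were not tested. The remaining gene, Eif4a3, which encodes a helicase of the exon junction complex, had log2 signals between 1.68 and 3.12 on its only such probe set and was not tested.

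Hearts of C57BL/6 mouse embryos at E12.5 were measured on 6 Affymetrix 3' arrays, 3 with the genotype label wildtype and 3 with the label Rhau KO, replicates 1 to 3 in each group. Rhau is an older name of Dhx36, a DEAH-box helicase that unwinds G-quadruplexes. The labels name neither the deleted part of the gene nor a Cre driver, and the series text speaks of 3 hearts dissected per group. Whether they came from separate litters is not given, so p-values measure only the spread between these samples. Values are log2 MAS5 signals; precision is bounded by having 3 arrays per label.

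In the first step of initiation the factor eIF2 carries the initiator tRNA to the small ribosomal subunit, and eIF1, eIF1A, eIF3 and eIF5 help that subunit find the start codon. The cap-binding complex eIF4F, made of the cap-binding protein eIF4E, the helicase eIF4A and the scaffold eIF4G, recruits the messenger RNA. Initiation is held back in 2 main ways: kinases phosphorylate eIF2 and block its recharging by eIF2B, and 4E-binding proteins take eIF4E away from eIF4G unless mTORC1 phosphorylates them.

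The groups are named by their labels because the targeted gene ran against them. Dhx36 had log2 signals of 8.99, 8.88 and 8.71 in replicates 1 to 3 labelled wildtype and 10.10, 10.48 and 10.23 in those labelled Rhau KO, a difference of 1.41 (SE 0.108, adjusted p = 1.46e-05). Its other probe sets were higher under the Rhau KO label too, by 1.10 (adjusted p = 0.000267) and 0.90 (adjusted p = 0.000186) in the fit of every probe set. Whether any of these 3 probe sets lies in the deleted stretch is unknown, and one that lies outside it is no check of the labels. Every direction below is therefore that of the labels as deposited. Arrays also differed in sex-linked signal. The Y-linked signal, a mean over Uty, Kdm5d and Eif2s3y scaled so that the highest array is 100%, was 1.23%, 2.04% and 39.3% in replicates 1 to 3 labelled wildtype, against 59.6%, 82.8% and 100% in those labelled Rhau KO. Xist, the RNA that silences an X chromosome in female cells, had log2 signals of 13.85, 13.82 and 13.47, against 13.14, 12.37 and 5.10. High Xist and Y-linked signal thus occurred together on 3 arrays (wildtype replicate 3, Rhau KO replicates 1 and 2), which is not the pattern of a single embryo of either sex. The labels do not say whether hearts were pooled. Every Rhau KO array lay above every wildtype array in Y-linked signal, so sex and label cannot be fully told apart. The heart muscle genes Nkx2-5, Tnnt2, Myh6, Myh7, Actc1 and Ttn were detected on all arrays, with log2 signals of at least 10.83. Nkx2-5 fell by 1.29 and Myh6 fell by 0.35, and the remaining 4 of these 6 genes were not called, among them Myh7 at 0.16. The summed log2 signal of all 6 ran from 17.25 to 17.31 under the wildtype label and from 17.06 to 17.24 under the Rhau KO label. Of 9 tested erythroid markers 7 fell and 0 rose, with a median of -1.07, and their summed log2 signal ran from 16.51 to 16.61 under the wildtype label and from 16.12 to 16.45 under the Rhau KO label. Of 7 endothelial markers 4 rose and 0 fell, with a median of 0.34, and their sums ran from 13.07 to 13.21 and from 13.28 to 13.37. Of 6 macrophage markers 2 rose, Lyz2 by 2.98, from a mean of 7.32 to 10.30, and Mrc1 by 0.43. The other 4 were not called, with Csf1r at 0.04, Cx3cr1 at -0.10, Aif1 at 0.28 and Adgre1 at 0.18. The sums of all 6 ran from 11.14 to 11.23 and from 11.63 to 11.93, and Lyz2 had the largest difference in the list. Of the hepatocyte markers Alb, Afp and Apoa1 lay below the test level on average, Ttr was not called, and the sums overlapped. No marker with a probe set was listed at 0 on all arrays. The part of these shifts in the results below was not tested. In whole hearts, fewer cells of a type and less RNA per cell cannot be told apart.

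Of 43 tested genes 4 rose, namely Eif3a, Eif3m, Eif4e and Eif4e3, and 2 fell, namely Eif4ebp1 and Eif4enif1, at a limma adjusted p under 0.05. That is 14.0% of the members, against 19.0% of all 12416 tested genes (8.20% higher and 10.8% lower). With medians rather than trimmed means equalised, the calls over all genes split into 532 higher and 1846 lower, in place of 1018 and 1336. The members' median difference was 0.04 on the log2 scale, against 0.01 over all tested genes, and with median centring it turned to -0.03, against -0.06. Folds among the 6 called members ran from 1.13 to 1.41, and no member reached a fold of 1.5, a size that 6.09% of all tested genes reached. The median absolute difference was 0.08 among members and 0.15 among all tested genes, and the median SE was smaller too, at 0.061 against 0.097. The 3 arrays of each label did not overlap for 8 members that were higher and 3 that were lower under the Rhau KO label, 25.6% of the members, where 37.1% of all tested genes did not overlap (18.4% higher and 18.7% lower).

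**Figure D1:**
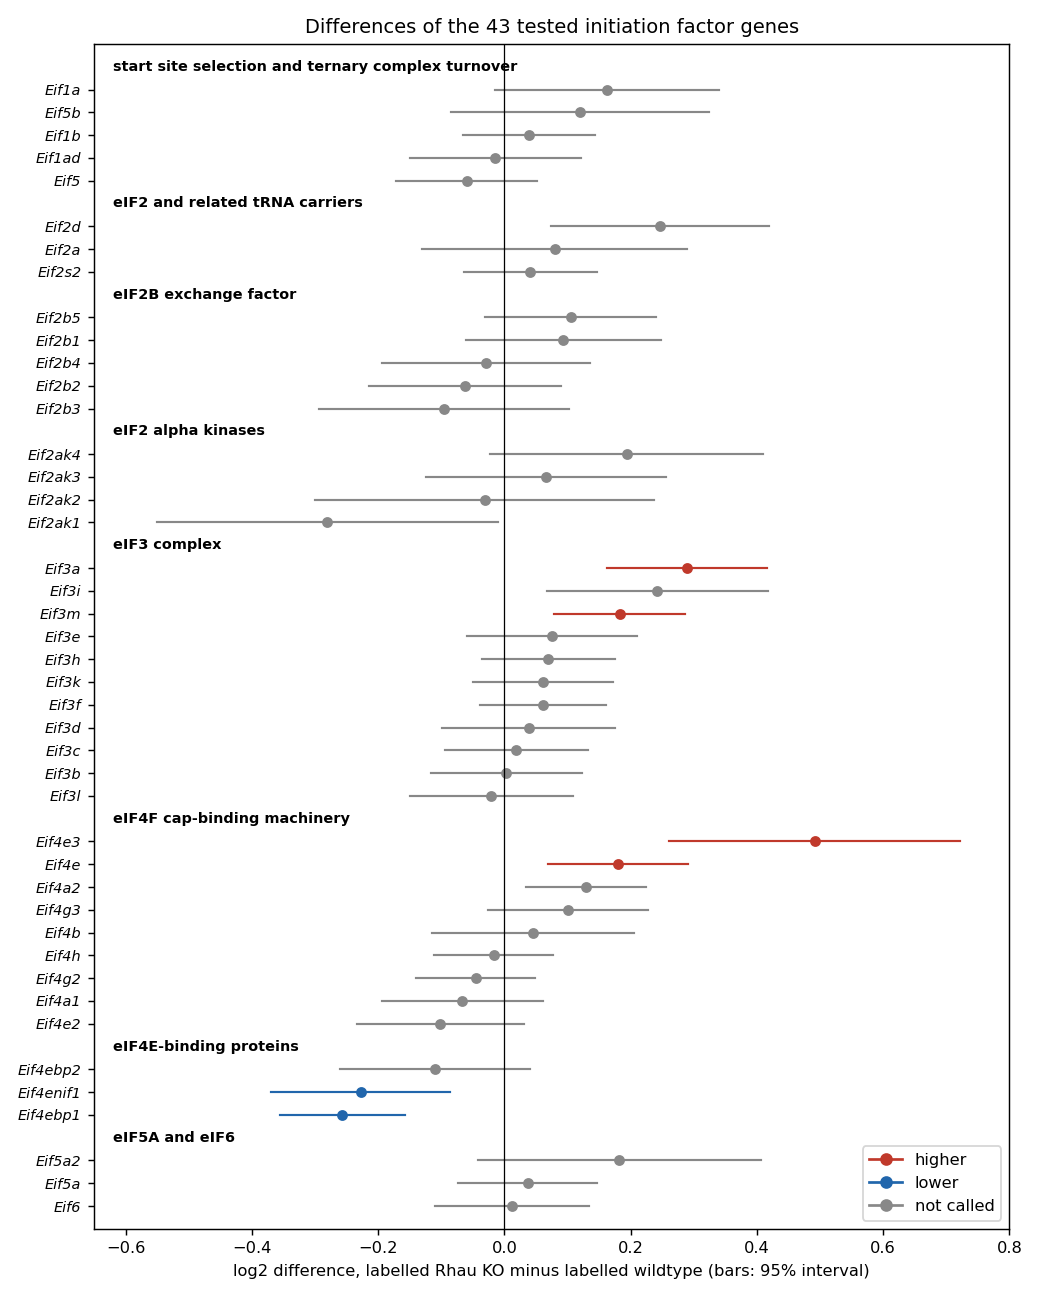
Log2 difference (labelled Rhau KO minus labelled wildtype, x axis) of the 43 tested initiation factor genes, grouped by role; points are limma estimates from 3 arrays against 3, bars their 95% confidence intervals, and colour marks genes called higher, called lower or not called. The called genes are Eif3a, Eif3m, Eif4e and Eif4e3 on the higher side and Eif4ebp1 and Eif4enif1 on the lower side.

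For the 37 members without a call, 95% intervals show what difference on the brightest probe set remains possible within the fit without covariates. In 36 of them the interval lay inside 0.5 on the log2 scale on both sides, a fold of 1.41, and in 25 inside 0.25, a fold of 1.19. Eif2ak1 was the exception, with an interval from -0.55 to -0.01. The intervals do not allow for the sex-linked signal. With that signal as a covariate the median SE of the members was 0.135, against 0.061 without it. Among the alternative fits Eif2d reached 0.59, outside its interval. Other probe sets of the uncalled members are not bounded by the intervals either. Dimmer ones of Eif3c, Eif2b2 and Eif2a were called higher by 0.55, 0.53 and 0.51 in the fit of every probe set.

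**Figure D2:**
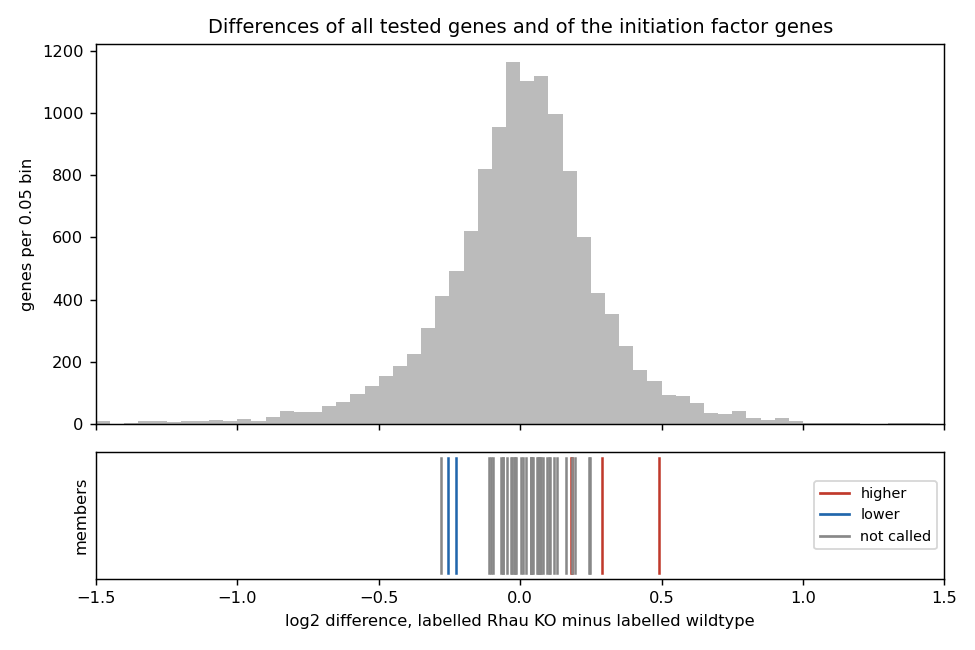
Number of tested genes per 0.05 bin of the log2 difference (labelled Rhau KO minus labelled wildtype), with the 43 members as ticks below, coloured by call; 12378 genes are drawn and 38 lie beyond the axis at 1.5 on either side. The members run from -0.28 to 0.49, in the middle of the distribution.

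Because Dhx36 acts on G-quadruplexes, the stretch of 250 bases before each RefSeq start site (build GRCm38.p6) was searched on both strands for 4 runs of GGG separated by 1 to 7 bases. Start sites were found for 35 of the 44 members, 48 sites in all, and sites of 1 gene can overlap. The motif occurred in 20.8% of the members' stretches and in 16.6% of all 32851. Among called genes it occurred before start sites of Eif3m, Eif4e and Eif4enif1 and not before that of Eif3a. No start site was found for the called genes Eif4e3 and Eif4ebp1, so they were not searched. CACGTG, the E-box letters that Myc and related factors recognise, occurred in 20.8% of the members' stretches and 6.02% of all, CCGGAAG, a core of ETS-family sites, in 20.8% and 6.91%, and TGATGNAA, a core of ATF4 response elements, in 0% and 3.45%. Matches are descriptions of letters, with no test, and no binding was measured here. Below are the stretches before the start sites of the called eIF3 genes and of the first Eif4e start site, and windows of 30 bases around matches at further start sites of Eif4e and Eif4enif1; capitals mark the motif matches, and CCC runs are GGG runs of the opposite strand.
Eif3a, chr19:60790694-60790943, minus strand, with no match: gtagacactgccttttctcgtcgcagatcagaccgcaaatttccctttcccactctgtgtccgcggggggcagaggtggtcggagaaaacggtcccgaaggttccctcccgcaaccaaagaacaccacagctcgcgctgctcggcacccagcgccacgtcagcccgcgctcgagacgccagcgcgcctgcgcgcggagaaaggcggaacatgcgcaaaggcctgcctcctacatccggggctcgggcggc
Eif3m, chr2:105017028-105017277, minus strand, with a G-quadruplex motif and CCGGAAG: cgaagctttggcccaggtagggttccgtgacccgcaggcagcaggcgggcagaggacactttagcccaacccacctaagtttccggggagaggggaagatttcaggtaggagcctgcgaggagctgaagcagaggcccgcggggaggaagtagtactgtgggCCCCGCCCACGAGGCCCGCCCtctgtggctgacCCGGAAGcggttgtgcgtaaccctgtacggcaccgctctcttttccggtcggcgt
Eif4e, chr3:138525941-138526190, plus strand, with a G-quadruplex motif: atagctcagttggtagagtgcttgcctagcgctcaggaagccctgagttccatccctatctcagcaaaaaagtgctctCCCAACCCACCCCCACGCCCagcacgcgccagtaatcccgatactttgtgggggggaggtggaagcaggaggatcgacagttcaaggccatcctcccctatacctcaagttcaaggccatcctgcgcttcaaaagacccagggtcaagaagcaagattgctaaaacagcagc
Eif4e, chr3:138527028-138527057, plus strand, with CACGTG: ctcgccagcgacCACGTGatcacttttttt
Eif4e, chr3:138527192-138527221, plus strand, with CACGTG: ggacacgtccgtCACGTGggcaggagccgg
Eif4enif1, chr11:3202849-3202878, plus strand, with a G-quadruplex motif: GGGAGCGCGGGCGGCAGGGCGCGCGCGGGg

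Cap-binding genes held both of the eIF4E forms that rose. Eif4e3, a relative of eIF4E that binds the cap in an unusual way, had log2 signals of 8.09, 7.97 and 7.99 in replicates 1 to 3 labelled wildtype and 8.54, 8.48 and 8.50 in those labelled Rhau KO. All 3 arrays labelled Rhau KO were above all 3 labelled wildtype. The difference of 0.49 (SE 0.104), a fold of 1.41, was the largest of the members in either direction (adjusted p = 0.00870). The call was kept when any 1 array was left out. The other Eif4e3 probe set differed by 0.10 without a call.

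Eif4e encodes the main cap-binding protein, the target of the 4E-binding proteins. Its signals were 11.81, 11.89 and 11.94 under the wildtype label, against 12.05, 12.04 and 12.09 under the Rhau KO label. The groups did not overlap. The difference was 0.18 (SE 0.050, adjusted p = 0.0306), and other Eif4e probe sets above the test level differed by 0.02 and 0.07 without a call. The call was lost without replicate 1 or 2 labelled wildtype, at 0.15 and 0.18, or without replicate 1 or 3 labelled Rhau KO, at 0.19 and 0.16, and with median centring, at 0.11.

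None of the other 7 tested genes of this group was called. Eif4a2, which encodes a form of the eIF4A helicase, came closest, with 13.51, 13.51 and 13.55 under the wildtype label, against 13.70, 13.63 and 13.63 under the Rhau KO label. These arrays did not overlap, and the difference of 0.13 had an adjusted p of 0.0590. Its paralogue Eif4a1 differed by -0.07, with an interval from -0.19 to 0.06. Eif4e2, a cap-binding repressor also called 4EHP, differed by -0.10, the scaffold genes Eif4g2 and Eif4g3 by -0.05 and 0.10, and the eIF4A cofactor genes Eif4b and Eif4h by 0.05 and -0.02.

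Of 3 tested genes grouped here as eIF4E-binding proteins, apart from the eIF4G scaffold genes given above, 2 fell, Eif4ebp1 and Eif4enif1. Eif4ebp2 was not called. The share called, 66.7% against 19.0% of all tested genes, rests on only 3 genes. Eif4ebp1, the 4E-binding protein best known as an mTORC1 substrate, had signals of 12.94, 12.90 and 12.86 under the wildtype label, against 12.67, 12.66 and 12.61 under the Rhau KO label. Every array labelled Rhau KO lay below every array labelled wildtype. The difference was -0.26 (SE 0.045, adjusted p = 0.00286), a fold of 1.19, and the call was kept when any 1 array was left out. Its brightest probe set has the suffix that the array's maker gives to probe sets that may cross-hybridise. The called dimmer probe sets of Eif2a and Eif3e, given below, carry the same suffix. So do the uncalled brightest probe sets of Eif3c, Eif2b2 and Eif4h, whereas the called dimmer probe sets of Eif3c and Eif2b2 do not. The other Eif4ebp1 probe sets differed by -0.15 and 0.21 without a call, and the mean of all of them by -0.07, so the probe sets of this gene did not show the same direction.

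Eif4enif1 encodes 4E-T, which carries eIF4E into the nucleus and to processing bodies. Its only probe set gave 11.09, 11.01 and 11.09 under the wildtype label, against 10.84, 10.94 and 10.73 under the Rhau KO label. The groups did not overlap, and replicate 2 labelled Rhau KO lay nearest to the wildtype arrays. The difference of -0.23 (SE 0.064) passed with an adjusted p of 0.0320. The call was lost without any of the 3 arrays labelled wildtype, at -0.21, -0.25 and -0.21, and without replicate 1 or 3 labelled Rhau KO, at -0.23 and -0.17. Eif4ebp2, the 4E-binding protein prominent in brain, ran from 10.26 to 10.43 under the wildtype label, against 10.20 to 10.31 under the Rhau KO label, and the difference of -0.11 was not called (interval -0.26 to 0.04).

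**Figure D3:**
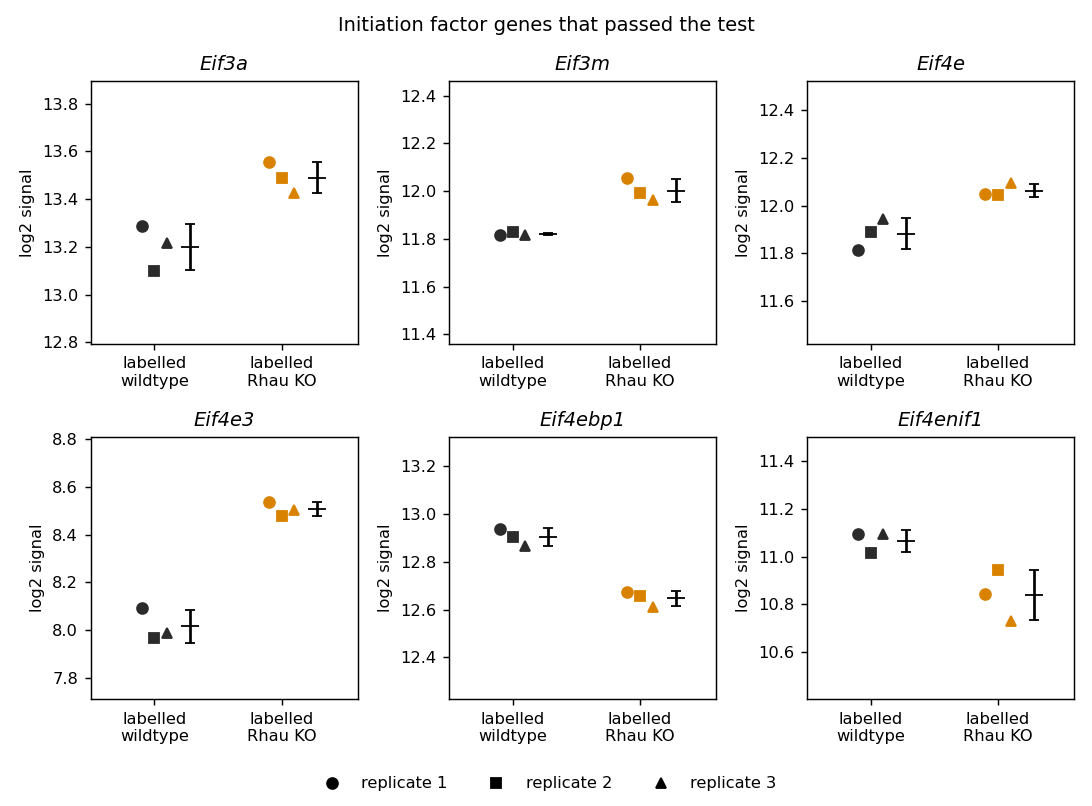
Log2 signal (y axis, a range of 1.1 in every panel) of the 6 called members on each array, with symbols for replicates 1 to 3 and the mean and SD of the 3 arrays of each label beside them. Eif3a, Eif3m, Eif4e and Eif4e3 sit higher, and Eif4ebp1 and Eif4enif1 lower, on all 3 arrays labelled Rhau KO.

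The eIF3 complex, the largest initiation factor, bridges the small subunit and eIF4F. Of its 11 tested genes 2 rose, 0 fell and 9 were not called, with a median difference of 0.06. That is 18.2% called, close to the 19.0% of all tested genes. Eif3a, the largest subunit and an organiser of the complex, had signals of 13.29, 13.10 and 13.22 under the wildtype label, against 13.55, 13.49 and 13.42 under the Rhau KO label. The groups did not overlap. The difference was 0.29 (SE 0.057, adjusted p = 0.00600), a fold of 1.22, and the call was kept when any 1 array was left out. Its other probe sets differed by 0.39 with a call and by 0.13 and 0.50 without, so all 4 pointed the same way by sign.

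Eif3m, a subunit of the complex's rim, was at 11.82, 11.83 and 11.82 under the wildtype label, against 12.05, 11.99 and 11.96 under the Rhau KO label. The wildtype arrays lay almost on top of each other, and all Rhau KO arrays above them. The difference of 0.18 (SE 0.047) had an adjusted p of 0.0216. The call was lost without replicate 1, 2 or 3 labelled wildtype, at 0.18, 0.19 and 0.18, without replicate 1 labelled Rhau KO, at 0.16, and with median centring, at 0.11. The dim second probe set of Eif3m differed by -0.50 without a call (SE 0.574), and averaging the pair gave -0.16.

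Eif3i, a subunit with a propeller fold, lay just outside the threshold. It was at 13.01, 13.12 and 13.10 under the wildtype label, against 13.34, 13.49 and 13.13 under the Rhau KO label, the last of these only just above the wildtype arrays. The difference of 0.24 had an adjusted p of 0.0558, and it was 0.34 with a call without replicate 3 labelled Rhau KO and 0.16 with no call without replicate 2. The other 8 subunit genes, Eif3b, Eif3c, Eif3d, Eif3e, Eif3f, Eif3h, Eif3k and Eif3l, ran from -0.02 to 0.08 on their brightest probe sets. A dimmer probe set of Eif3c, however, rose by 0.55 (10.33, 10.48 and 10.59 against 11.14, 11.09 and 10.80, adjusted p = 0.00462 among all probe sets), and another of Eif3e rose by 0.17 (adjusted p = 0.0363).

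**Figure D4:**
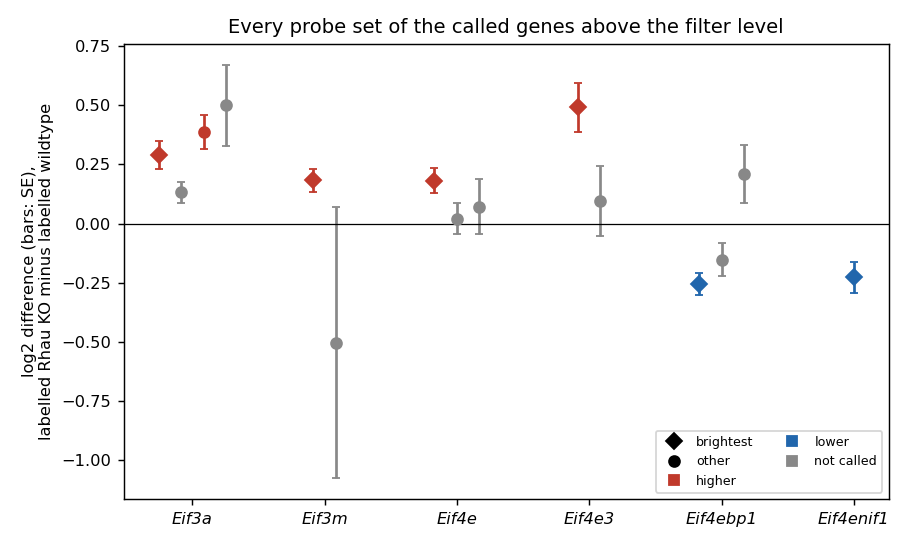
Log2 difference (labelled Rhau KO minus labelled wildtype, y axis) of every probe set of the 6 called genes whose mean lay above the test level; diamonds are the brightest probe set of a gene, circles the others, bars the SE, and colour the call among all probe sets. Probe sets of Eif3a share a sign, whereas those of Eif3m and Eif4ebp1 do not.

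Genes of the eIF2 cycle showed no call on their brightest probe sets. Eif2s2, which encodes the beta subunit and is the only eIF2 subunit gene among the members, differed by 0.04. Its signals ran from 13.13 to 13.25 over all 6 arrays. Eif2d, an alternative carrier of tRNA that also acts in ribosome recycling, was higher on all 3 arrays labelled Rhau KO (10.73, 10.56 and 10.54, against 10.46, 10.41 and 10.23). Its difference of 0.25 narrowly missed the threshold with an adjusted p of 0.0504. It was called under 5 of 16 alternatives. Eif2a, an alternative initiator tRNA carrier, differed by 0.08 without a call.

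The 5 tested genes of eIF2B, the factor that recharges eIF2 with GTP, lay between -0.10 for Eif2b3 and 0.10 for Eif2b5, and none was called. Their groups all overlapped. Dimmer probe sets of 3 genes of the eIF2 cycle were nevertheless called higher: Eif2b2 by 0.53 (adjusted p = 0.00342), Eif2a by 0.51 (adjusted p = 0.00770) and Eif2s2 by 0.36 (adjusted p = 0.0243), while their brightest probe sets differed by -0.06, 0.08 and 0.04. In all, 65 further probe sets of the members lay above the test level. Of these 65, 6 were called, all higher, a smaller share than the 13.6% of all probe sets called in either direction in that fit. The share of all probe sets called higher alone was not counted, so no comparison is made for that direction. Of the 65, 44 had the sign of the brightest probe set.

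None of the 4 kinases that phosphorylate eIF2 in response to stress was called. Eif2ak1 encodes the heme-regulated kinase, which is prominent in red cell precursors. It was at 8.32, 8.19 and 8.32 under the wildtype label, against 8.17, 7.97 and 7.85 under the Rhau KO label. The groups did not overlap, although replicate 1 labelled Rhau KO was close to replicate 2 labelled wildtype, and the difference of -0.28 (SE 0.122) had an adjusted p of 0.138. The erythroid markers, with a median of -1.07, were lower on the same arrays, and their part in this difference was not tested. Other Eif2ak1 probe sets above the test level differed by -0.24, -0.08 and 0.11 without a call, and their groups overlapped. Eif2ak4, the amino acid sensor GCN2, was at 8.53, 8.57 and 8.51 and at 8.61, 8.83 and 8.75, without overlap and without a call (0.19, adjusted p = 0.202). Eif2ak2, the double-stranded RNA sensor PKR, and Eif2ak3, the endoplasmic reticulum stress sensor PERK, differed by -0.03 and 0.07.

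Factors that act at start codon choice, subunit joining and afterwards were not called either. Eif1a, which encodes a form of the scanning factor eIF1A, differed by 0.16, Eif1b by 0.04, Eif1ad by -0.01, the GTPase activator gene Eif5 by -0.06 and the subunit joining gene Eif5b by 0.12. With 1 array left out, Eif1a ran from 0.09 to 0.21 and Eif5b from 0.06 to 0.21. Eif5a, whose hypusine-carrying product helps ribosomes through difficult stretches, differed by 0.04, and its less widely expressed paralogue Eif5a2 by 0.18, with an interval from -0.04 to 0.41. Eif6, which keeps ribosomal subunits apart, differed by 0.01.

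Other genes of the translation pathway were taken from lists by function: 58 genes, of which 55 were tested, 2 rose and 10 fell, 21.8% against 19.0% of all tested genes. Their median difference was -0.04. Of 8 tested genes in the elongation list 0 were called by limma, with 1, Eef1e1, at an unadjusted p under 0.05. That list holds Eef1e1 and the kinase gene Eef2k beside the elongation factors themselves. Its largest differences were 0.18 for Eef1e1 and 0.17 for Eefsec. Of 6 genes of termination and ribosome rescue, Gspt1, which encodes the release factor eRF3a, fell by 0.23 (11.71, 11.67 and 11.66 against 11.44, 11.45 and 11.45, adjusted p = 0.00647). Pelo, which rescues stalled ribosomes, rose by 0.34 (adjusted p = 0.0325), a call lost without replicate 1 or 3 labelled wildtype, at 0.29 and 0.33, without replicate 1 or 2 labelled Rhau KO, at 0.29 and 0.30, and with median centring, at 0.27.

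Among 18 tested poly(A)-binding and initiation partner genes 1 rose and 4 fell, 27.8% called against 19.0% of all tested genes. Dhx9, an RNA helicase that aids translation of structured messages, fell by 0.62 (13.12, 13.09 and 13.01 against 12.40, 12.52 and 12.43, adjusted p = 2.19e-05). Dap fell by 0.55. Mknk2, a kinase that phosphorylates eIF4E, fell by 0.39, from 12.39, 12.36 and 12.29 to 11.93, 11.91 and 12.01 (adjusted p = 0.000481). Paip2b, an inhibitor of poly(A)-binding protein, fell by 0.32. Pdcd4, an inhibitor of the eIF4A helicase, named here after its value was seen, rose by 0.28 (10.61, 10.67 and 10.59 against 10.97, 10.84 and 10.89, adjusted p = 0.00760), and its call was lost with median centring, at 0.21. Arrays of the 2 labels did not overlap for any of these 5 genes, which were picked by their calls. Over the 18 tested genes of the list 8 did not overlap, 44.4% against 37.1% of all tested genes.

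Of 14 tested mTORC1 pathway genes 3 fell and 0 rose, 21.4% called against 19.0% of all tested genes. Ddit4, an mTORC1 inhibitor induced by stress, fell by 0.48, and Rragd, a GTPase that brings mTORC1 to the lysosome, by 0.41. Lamtor1, the lysosomal anchor of that GTPase, fell by 0.24. The limma adjusted p of these 3 genes lay between 0.00124 and 0.00665. Of 9 genes of eIF2 dephosphorylation and the stress response downstream of it, 2 fell and 0 rose, 22.2% called against the same 19.0%. Atf4, the transcription factor whose translation rises when eIF2 is phosphorylated, had 11.85, 11.93 and 11.96 under the wildtype label, against 11.75, 11.68 and 11.61 under the Rhau KO label. It fell by 0.24 (adjusted p = 0.0127), but its call was lost without replicate 2 or 3 labelled wildtype, at -0.23 and -0.22, and averaging its probe sets gave 0.16. Its target Trib3 fell by 0.93 (8.54, 7.85 and 8.65 against 7.22, 7.49 and 7.54, adjusted p = 0.00967).

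**Figure D5:**
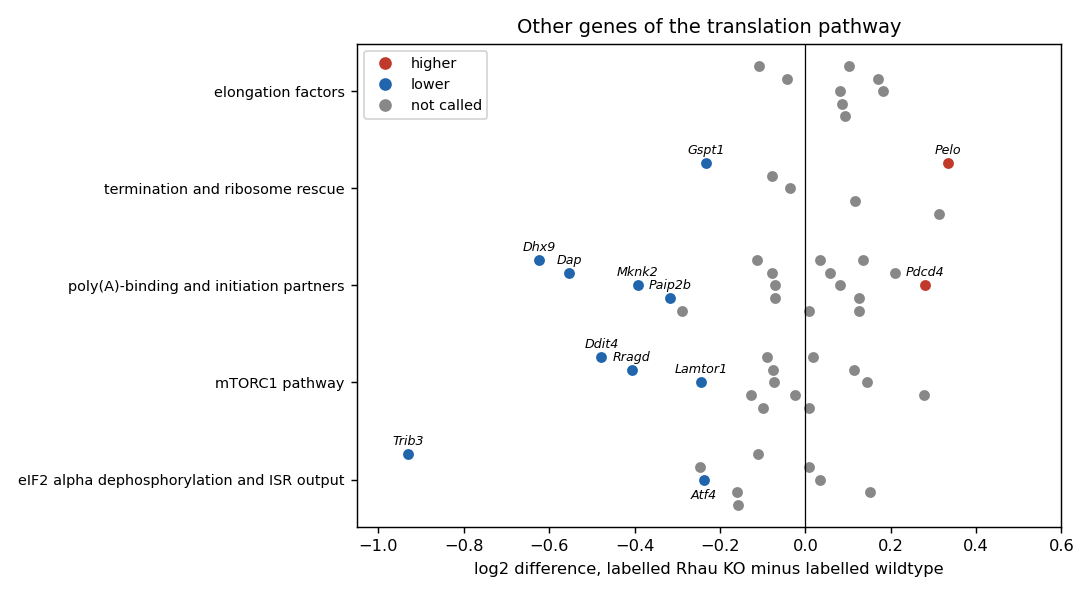
Log2 difference (labelled Rhau KO minus labelled wildtype, x axis) of the 55 tested genes in 5 lists of the translation pathway, 1 point per gene, coloured by call, with called genes named; vertical position within a list only separates points. The 10 genes called lower run from -0.23 to -0.93, and the elongation list holds no called gene.

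Some calls rested on a single choice of processing. Averaging the probe sets of a gene ended the calls of Eif3m, of Eif4e at 0.06, of Eif4e3 at 0.29 and of Eif4ebp1 at -0.07, and left that of Eif3a; Eif4enif1 has 1 probe set, so this choice cannot test it. A variance prior that does not follow the signal level ended those of Eif3a, Eif3m, Eif4e and Eif4enif1, and left those of Eif4e3 and Eif4ebp1. Among the other translation genes it ended the calls of Lamtor1, Atf4 and Pelo.

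The sex-linked signal moved with the labels, and with it as a covariate 0 of 43 members were called, with 4 at an unadjusted p under 0.05, and 178 of the 12416 genes were called by limma. The median SE of the members was then 0.135, against 0.061 without it. Differences stood at 0.37 for Eif3a, 0.26 for Eif3m, 0.56 for Eif4e3 and -0.19 for Eif4enif1, and moved by over 1.5 times for Eif4e, to 0.06, and for Eif4ebp1, to -0.16. In that fit none of the other translation genes was called, and at an unadjusted p under 0.05 there were 15 of 55.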

How the data were processed

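The 6 heart RNA samples were hybridised to Affymetrix mouse expression arrays, and the authors deposited log2 values made with MAS5, per the submitters' processing notes. Each array's linear trimmed mean, with 2% cut at either end, was 500.003 in the deposited values, so arrays were already scaled; array medians ran from 6.68 to 6.80. Of 45101 probe sets, 64 controls were left out, 34945 name 1 gene, 932 name several and 9160 none in the platform annotation. Each gene took its brightest single-gene probe set; genes in the lowest 40% of probe sets, below 5.90 on the log2 scale, were not tested, which left 12416. Groups came from the genotype labels. Differences were tested with limma 3.58.1 (R 4.3.3; lmFit and eBayes with trend) over all tested genes, p-values adjusted by Benjamini and Hochberg's method and calls made under 0.05; the same fit on every probe set gave values for further probe sets. The test was checked on simulated data, where it recovered 47.8% of genes changed 1.5-fold, 82.1% at 2-fold and 95.5% at 4-fold. Of its calls there, 6.25% were unchanged genes. No 2 arrays held identical values. The members and gene lists were chosen with earlier results of these data known. Named genes were Dhx36, the called members, in each role the 2 uncalled members of largest difference, and in each pathway list the 4 called genes of largest difference or, with none called, the 2 largest; other members are given so that all are accounted for. Alternatives were quantile normalization, median centring, a pseudocount of 64, no filter, a filter of 60%, averaging each gene's probe sets, eBayes without trend, array weights, the replicate block, the Y-linked signal as covariate, and leaving out each array. Promoters are RefSeq, build GRCm38.p6.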

Additional observations from a re-analysis of the deposited data

How the results depend on the processing

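The count of initiation factor genes called higher, 4, became 7 with quantile normalization or array weights, 2 with median centring or the mean of all probe sets, 1 with eBayes without trend, 0 with the Y-linked covariate and 2 to 6 with 1 array left out. The count called lower, 2, became 1 with the mean of all probe sets or without trend, 0 with the covariate and 1 to 2 with 1 array left out. Their median of 0.04 became 0.077 with quantile normalization, -0.028 with median centring, 0.082 with the covariate and 0.026 to 0.071 with 1 array left out. Other translation genes called higher, 2, became 6 with quantile normalization, 0 with median centring, 1 without trend, 0 with the covariate and 1 to 3 with 1 array left out; those called lower, 10, became 5 with the mean of probe sets and 0 with the covariate. Over all genes, 1018 higher became 532 with median centring, 588 with the mean of probe sets, 614 without trend, 46 with the covariate and 590 to 802 with 1 array left out, and 1336 lower became 806 with the mean of probe sets, 878 without trend and 132 with the covariate. With the mean of all probe sets the sign turned for Eif3m (-0.16), Eif5b (-0.0081), Eif2d (-0.054), Eif3e (-0.19) and Atf4 (0.16), and for Eif5a it turned with median centring (-0.032) and without wildtype replicate 1 (with 1 array left out it ran from -0.00033 to 0.073). Averaging probe sets also ended the calls of Dhx9, Gspt1, Paip2b and Rragd. The causes were not tested, beyond fewer arrays in the fits that leave one out. Same-numbered arrays of the 2 labels had correlations of deviations of -0.01, 0.04 and 0.01, and arrays of unlike number from -0.07 to 0.05. These values cannot settle whether same-numbered arrays share more than a number. The fit with the replicate block called 6 members higher and 2 lower, adding Eif2d and Eif3i, and 955 and 1300 of all genes. Its median SE over the members was 0.056, against 0.061 without the block. Dhx36 was called in all 16 alternatives, by at least 1.14.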

Other observations

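Probe sets that name an initiation factor gene together with another gene entered no count above. The 3 that name Eif3j1 and Eif3j2, which encode a loosely bound eIF3 subunit, differed by -0.07, 0.13 and 0.14 on the log2 scale (labelled Rhau KO minus labelled wildtype), and none was called. The probe set shared by Eif4a3 and Gm5576 was bright, with mean log2 signals of 12.12 under both labels, where the single-gene probe set of Eif4a3 lay below the test level. The probe set shared by Eif4ebp3 and Ankhd1 differed by 0.11 without a call.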
